A study of Mus musculus with 6 samples.

Results

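The 10 genes described here belong to the MHC class I antigen presentation pathway and were taken by their symbols from the feature lists, which hold 32285 genes in every library. They were H2-K1, H2-D1 and H2-Q4 (heavy chains), B2m (the light chain), Tap1 and Tap2 (peptide transporter), Tapbp (tapasin), Nlrc5 (transcriptional activator), and Psmb8 and Psmb9 (immunoproteasome subunits). All 10 were found, and all 10 passed the filter on low counts in every comparison between epithelial cell types. The symbols were fixed by name and not by a cutoff on a measured value, but earlier results of these data were known.

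The study profiled dorsal skin cells of wildtype male FVB mice aged p55 to p57 by single-cell RNA-seq, after the skin had been shaved and waxed to induce hair regeneration. Skins were taken 0h, 4h, 16h, 2d, 4d and 6d after depilation, and each time point is 1 library of cells from 2 mice, processed separately and mixed at equal cell numbers. All 6 libraries came from waxed skin, the mice within a library could not be told apart, and 1 library per time point leaves a pair of time points without replicates to test. The question asked here is how these genes differed between bulge cells, which hold the hair follicle stem cells, and the epidermis, within the same libraries and over the time points.

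Class I molecules display peptides from inside the cell to CD8 T cells and natural killer cells. The proteasome, with Psmb8 and Psmb9 replacing constitutive subunits under interferon, makes the peptides, the Tap1 and Tap2 transporter carries them into the endoplasmic reticulum, tapasin helps load them, and the heavy chain travels to the surface with B2m. NLRC5 drives transcription of most of these genes. The resting hair follicle bulge has long been described as a site of relative immune privilege, with low surface class I.

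The libraries held 61031 barcodes and 542895832 UMIs (unique molecular identifiers, 1 per captured RNA molecule), with 72634390 to 112370376 UMIs per library. After filters, 50502 cells remained, 6520 to 11032 per library, with a median of 6036.5 to 10531 UMIs per cell. Pairs of libraries shared 7 to 47 barcodes, at most 0.465% of the smaller library. Cells were clustered without the class I and interferon genes and named from marker genes. The outer bulge (OB) was 1 cluster of 2831 cells, 214 to 684 per library, led by Ccn2, Fst, Krt24, Cd34 and Grem1. Basal interfollicular epidermis (IFE.B) held 16702 cells and basal upper hair follicle (uHF.B) 6170 cells. Cd34, the surface marker of bulge stem cells, stood at 91.4 to 683 CPM in OB (the UMIs of a gene in the summed cells scaled to a common total) and at no more than 0.622 CPM in IFE.B. Ly6a, which marks the epidermis, ran the other way, at 3.13 to 29.4 CPM in OB and 376 to 861 CPM in IFE.B.

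Most of the members lie together. In the GRCm38 assembly (mm10), Tapbp spans chr17:33915899-33929292, H2-K1 chr17:33996017-34000347, Psmb9 chr17:34181987-34187764, Tap1 chr17:34187553-34197225, Psmb8 chr17:34197721-34201454, Tap2 chr17:34203527-34216321, H2-D1 chr17:35262730-35267499 and H2-Q4 chr17:35379617-35385290. B2m spans chr2:122147686-122153083 and Nlrc5 chr8:94434356-94527272. H2-K1 and Psmb9 are on the minus strand and the others on the plus strand, and all are annotated as protein coding. The reference is of the C57BL/6 strain, whose H2 haplotype differs from that of FVB, and the heavy chain genes are close paralogs, so reads of H2-K1, H2-D1 and H2-Q4 may be lost or divided between them and the levels of these 3 genes are uncertain.

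RefSeq promoters (GRCm38.p6, 250 bases before to 50 after the annotated start) were found for 8 of the 10 members, and not for Tap2 and Nlrc5. The windows of both classical heavy chains, of B2m and of Tap1 are shown because the results turn on these chains and on the transporter that supplies them. Capitals mark letters matched on either strand by GGGATTCCC (an NF-kB type site), GAANNGAAA or GAAANNGAA (interferon response elements), CCAAT (the NF-Y box) or TGACG (part of a CREB type site).
H2-K1, chr17:34000298-34000597, minus strand: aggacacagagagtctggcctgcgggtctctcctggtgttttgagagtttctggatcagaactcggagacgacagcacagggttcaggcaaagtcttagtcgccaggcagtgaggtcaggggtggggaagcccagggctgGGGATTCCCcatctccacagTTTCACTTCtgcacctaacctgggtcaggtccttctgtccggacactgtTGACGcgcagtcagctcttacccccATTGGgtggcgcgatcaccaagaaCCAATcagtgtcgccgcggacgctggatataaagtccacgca
H2-D1, chr17:35262844-35263143, plus strand: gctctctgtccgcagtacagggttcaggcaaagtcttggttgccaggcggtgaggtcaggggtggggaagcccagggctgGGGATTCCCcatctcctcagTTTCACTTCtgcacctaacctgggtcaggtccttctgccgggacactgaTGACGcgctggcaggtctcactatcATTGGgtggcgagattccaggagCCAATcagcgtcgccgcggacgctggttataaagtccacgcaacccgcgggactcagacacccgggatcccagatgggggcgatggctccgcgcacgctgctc
B2m, chr2:122147437-122147736, plus strand: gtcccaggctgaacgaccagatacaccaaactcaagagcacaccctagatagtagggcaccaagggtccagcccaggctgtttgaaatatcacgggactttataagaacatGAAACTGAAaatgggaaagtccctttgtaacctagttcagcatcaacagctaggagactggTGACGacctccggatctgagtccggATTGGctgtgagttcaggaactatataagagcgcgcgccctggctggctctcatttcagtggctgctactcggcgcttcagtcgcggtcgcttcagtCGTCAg
Tap1, chr17:34187306-34187605, plus strand: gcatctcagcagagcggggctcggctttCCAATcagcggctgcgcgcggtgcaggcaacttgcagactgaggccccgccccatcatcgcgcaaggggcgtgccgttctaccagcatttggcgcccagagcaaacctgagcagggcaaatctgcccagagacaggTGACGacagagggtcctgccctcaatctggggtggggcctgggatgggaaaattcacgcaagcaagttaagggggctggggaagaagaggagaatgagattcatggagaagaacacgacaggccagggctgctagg
GGGATTCCC was present in H2-K1 and H2-D1, where it begins 110 and 170 bases before the start, and in 0.353% of 32851 promoters of the same length. H2-K1 has a second annotated start nearby, whose window holds the same match. GAANNGAAA was in H2-K1, H2-D1 and H2-Q4 and in 7.52% of all promoters. GAAANNGAA was in B2m and in 8.56% of promoters. CCAAT was in 7 of the 8 member promoters, all but Psmb8, and in 37.4% of all. TGACG was in 6 of 8, all but Tapbp and Psmb8, and in 20.8% of all. The Tap1 and Psmb9 windows overlap on opposite strands, so they share letters. A match is a description of the letters and not of a bound site.

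Class I genes were lower in the bulge than in basal epidermis. The classical heavy chains, the light chain, Tap1 and the immunoproteasome subunits and Nlrc5 all passed the test, while Tap2 and Tapbp did not. Counts were summed per library and cell type and compared within the library by edgeR's quasi-likelihood test, with Benjamini-Hochberg adjustment over 12748 genes. By this test 8 of the 10 members were lower in OB and 0 higher, against 18.3% of all genes tested that were lower and 18.8% that were higher. The median log2 difference was -1.13 over the members and -0.02 over all genes. Composition scaling placed the bulge 0.21 (log2) further down than plain CPM does, so the fitted differences are larger than the CPM ratios.

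H2-K1 stood at 662 to 1049 CPM in OB, with a median of 805, and at 1153 to 1778 CPM in IFE.B, with a median of 1610. Every bulge library was below every epidermal library. The fitted log2 difference was -1.08 (SE 0.0908, edgeR adjusted p = 1.28e-05, n = 6 libraries).

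H2-D1, the other classical heavy chain, ranged from 1064 to 1843 CPM in OB, median 1261, and from 1994 to 3277 CPM in IFE.B, median 2866. Here too the ranges did not overlap. The log2 difference was -1.20 (SE 0.0801, edgeR adjusted p = 2.73e-06), and the bulge was lower in 6 of 6 libraries.

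H2-Q4, a non-classical heavy chain, ranged from 20.1 to 88.5 CPM in OB, median 52.5, and from 28.9 to 134.7 CPM in IFE.B, median 83.0. The ranges overlapped widely, and in the 4h library the bulge was the higher, 38.2 against 28.9 CPM. Fitted over all libraries, H2-Q4 differed by -0.75 (SE 0.187, edgeR adjusted p = 0.0106), lower in 5 of 6 libraries.

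**Figure D1:**
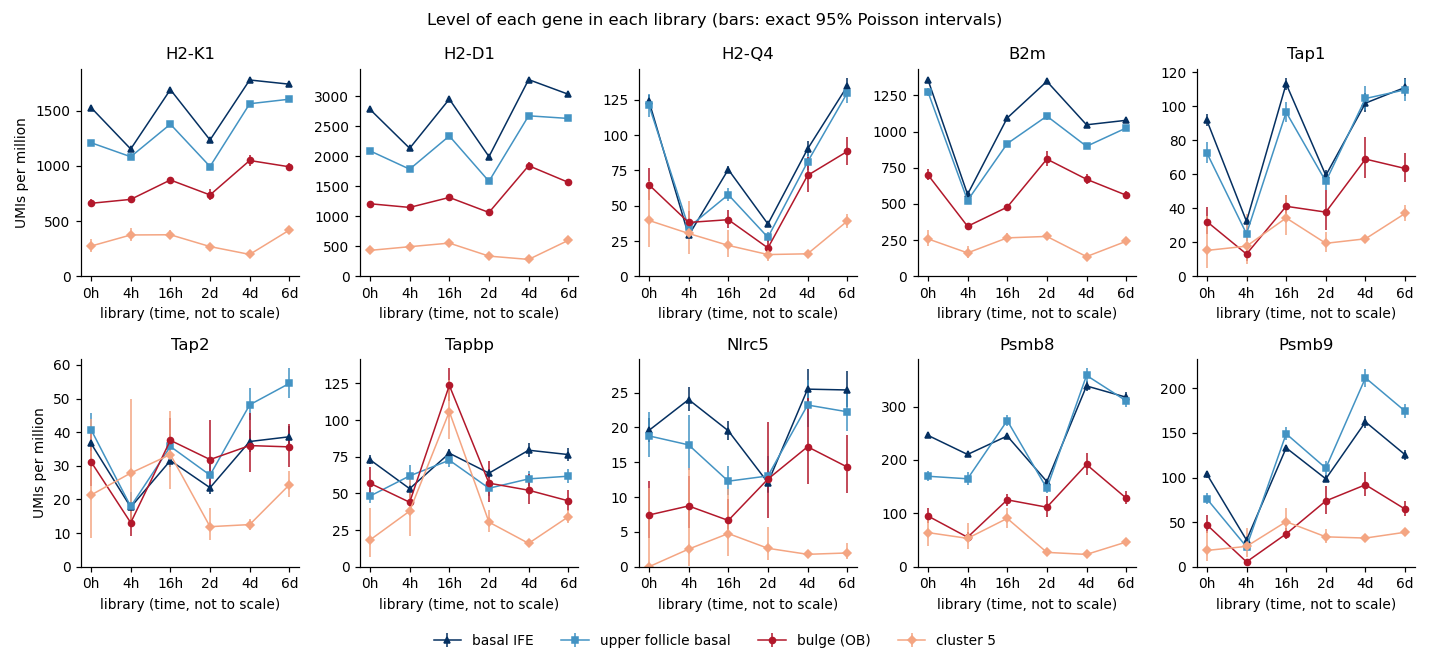
Level of each of the 10 members (CPM of the summed cells, linear axis from 0, its range set per gene) in each library from 0h to 6d, which are spaced evenly and not to scale. Colours and markers stand for IFE.B, uHF.B, OB and cluster 5 (the unnamed Lhx2, Krt28 and Col14a1 cluster), lines join libraries, and bars are exact 95% Poisson intervals for counting error. The H2-K1 points of OB, 662 to 1049 CPM, lie below those of IFE.B, 1153 to 1778 CPM, in every library, while the Tap2 and Tapbp points of these types cross.

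B2m, which every class I heavy chain needs to reach the surface, stood at 346 to 810 CPM in OB, median 616, and at 567 to 1359 CPM in IFE.B, median 1086. The ranges overlapped because both types were low at 4h, but within a library the bulge was lower in 6 of 6. The log2 difference was -1.07 (SE 0.0962, edgeR adjusted p = 1.91e-05).

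Tap1 ranged from 13.1 to 68.9 CPM in OB, median 39.5, and from 32.3 to 113.1 CPM in IFE.B, median 96.7. The bulge was lower in 6 of 6 libraries, at 0.351 of the epidermal CPM at 0h and 0.677 at 4d. Fitted within the library, Tap1 differed by -1.26 (SE 0.135, edgeR adjusted p = 6.46e-05).

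Its partner Tap2 ranged from 13.1 to 37.6 CPM in OB and from 17.7 to 38.6 CPM in IFE.B, with medians of 33.8 and 34.1. The values intermingled, and the bulge was lower in 4 of 6 libraries. The log2 difference of -0.23 (SE 0.136, edgeR adjusted p = 0.217) has a 95% interval from -0.58 to 0.12.

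Tapbp, the loading chaperone, ranged from 44.0 to 123.7 CPM in OB, median 54.6, and from 53.3 to 79.5 CPM in IFE.B, median 74.8. Its highest bulge value, at 16h, was the single one above the epidermis. The log2 difference was -0.45 (SE 0.198, edgeR adjusted p = 0.104, 95% interval -0.96 to 0.06). Without the 16h library it was -0.66 (adjusted p = 0.00794). That library was singled out by its value, so this p-value is not a separate test.

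Nlrc5 was counted in few UMIs, at 6.65 to 17.2 CPM in OB, median 10.7, and 12.1 to 25.5 CPM in IFE.B, median 21.8. The bulge was lower in 5 of 6 libraries, all but 2d, where the ratio was 1.04. The log2 difference was -1.19 (SE 0.195, edgeR adjusted p = 0.00102).

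Psmb8 ranged from 55.3 to 191.5 CPM in OB, median 118.4, and from 159.5 to 338.6 CPM in IFE.B, median 245.5. It was lower in the bulge in 6 of 6 libraries, at 0.263 of the epidermal CPM at 4h and 0.699 at 2d. Psmb8 differed by -1.36 (SE 0.158, edgeR adjusted p = 0.000105).

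Psmb9 ranged from 5.45 to 91.9 CPM in OB, median 55.8, and from 29.9 to 162.3 CPM in IFE.B, median 114.7. The lowest values of both types were at 4h, and the bulge was again lower in 6 of 6 libraries. The log2 difference of -1.43 (SE 0.205, edgeR adjusted p = 0.000456) was the largest among the members.

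The share of cells with at least 1 UMI was lower in OB for the abundant genes too. After each cell was thinned to 2000 UMIs, H2-K1 was seen in 61.1% ± 6.04 of OB cells and 92.6% ± 3.46 of IFE.B cells (SD, n = 6 libraries). Without thinning the shares were 79.1% and 99.7%, with bulge cells shallower (median 4968 UMIs) than epidermal cells (median 8435.5). For B2m the thinned shares were 55.6% ± 9.75 and 84.6% ± 9.67, and unthinned 75.2% and 98.8%. For Psmb8 they were 17.6% ± 5.61 and 37.5% ± 7.27, and unthinned 32.4% and 78.6%. Tap2, the member with the smallest difference, was seen in 5.53% ± 1.83 and 6.22% ± 1.64 of thinned cells, and 14.5% and 22.2% unthinned.

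Compared with basal upper follicle, the bulge was also the lower. Against uHF.B, 9 of the 10 members were lower and 0 higher by the same test, where 18.9% of 11828 genes were lower and 18.5% higher. Psmb9 differed most, with 22.4 to 211.7 CPM in uHF.B (median 129.7), and stood below it in all 6 libraries at a log2 difference of -1.42 (SE 0.182, edgeR adjusted p = 0.000138). The log2 differences of H2-K1, H2-D1 and B2m were -0.77, -0.81 and -0.82 (edgeR adjusted p = 2.76e-05, 7.94e-06 and 4.78e-05), and each was lower in 6 of 6 libraries. Psmb8 differed by -1.15, Tap1 by -1.02, Nlrc5 by -0.85 and H2-Q4 by -0.55 (edgeR adjusted p = 4.30e-05, 4.24e-05, 0.00222 and 0.00968). Tap2 passed narrowly at -0.40 (edgeR adjusted p = 0.0485), and was lost in 10 of 20 alternative analyses. Tapbp did not pass (-0.13, edgeR adjusted p = 0.604, 95% interval -0.56 to 0.31).

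**Figure D2:**
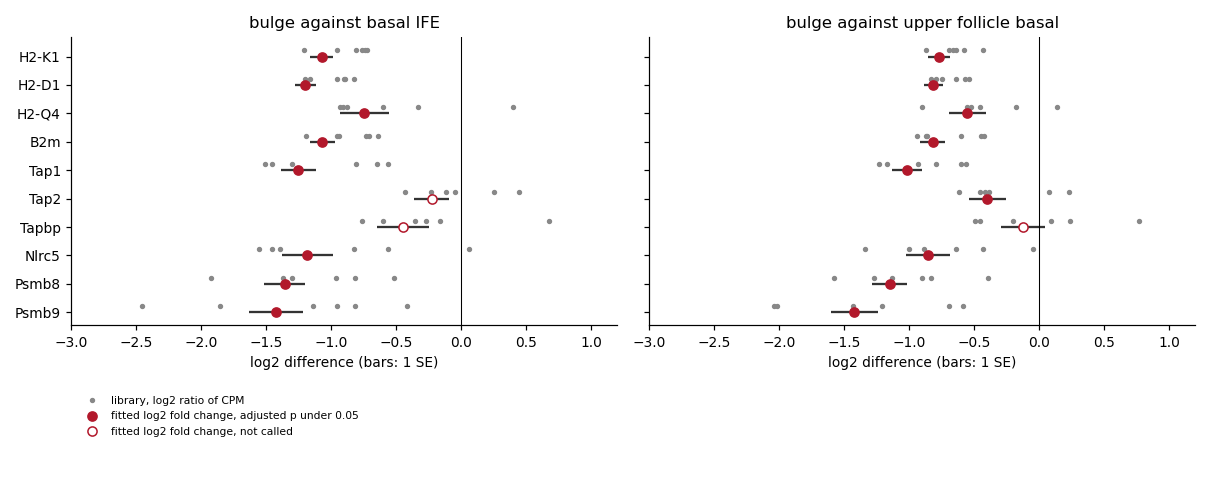
Difference of the 10 members on the log2 scale between OB and IFE.B (left) and between OB and uHF.B (right). Large points are the fitted difference with bars of 1 SE, filled where the edgeR adjusted p was under 0.05 and open where it was not, and small grey points are the CPM ratios of the 6 libraries. The open points are Tap2 and Tapbp on the left and Tapbp on the right.

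The size of these differences depended on which OB cells were counted. At a clustering resolution of 0.8 in place of 0.4 the 2831 OB cells fell mainly into 3 groups. The first (1508 cells, 53.3%) was led by Krt24, Ccn2, Cd34, Cxcl14 and Sfrp1. The second (702 cells, 24.8%) was led by Pthlh, Fst, Tgfb2 and Grem1. The third (603 cells, 21.3%) was led by Fst, Krt6a and Serpinb2, with 358 of its cells from 4h and 233 from 16h.

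Class I levels differed sharply between the first and second of these groups. H2-K1 stood at 267 to 524 CPM in the Krt24 and Cd34 group and at 1283 to 1847 CPM in the Pthlh and Tgfb2 group, a median ratio of 0.265. The median ratio was 0.308 for H2-D1, 0.297 for H2-Q4, 0.284 for B2m, 0.212 for Tap1, 0.211 for Nlrc5, 0.168 for Psmb8 and 0.187 for Psmb9. Each of these 8 genes and Tap2 (0.467) was lower in the Krt24 and Cd34 group in 6 of 6 libraries, and Tapbp (0.852) in 5 of 6. These groups were chosen after class I values had been seen, so their values are given without a test.

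In the Pthlh and Tgfb2 group most members stood near their level in the epidermis. Its median ratio to IFE.B was 1.04 for H2-K1, 0.894 for H2-D1, 0.998 for B2m, 1.13 for Tap1, 1.07 for Nlrc5, 1.05 for Psmb8 and 1.05 for Psmb9. Farther from it were Tap2, at 1.47 and above IFE.B in 5 of 6 libraries, H2-Q4, at 1.23 and above it in 4 of 6, and Tapbp, at 0.780 and below it in 5 of 6. Psmb8, for example, was 185.4 to 329.5 CPM in this group and 159.5 to 338.6 CPM in IFE.B. In the Krt24 and Cd34 group it was 18.6 to 85.0 CPM, below every epidermal library.

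**Figure D3:**
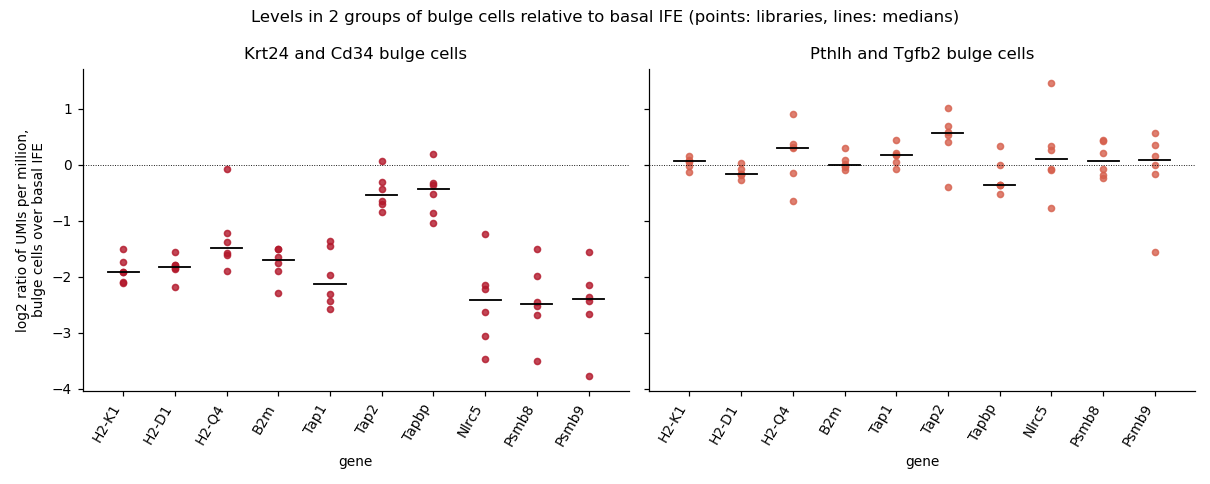
Level of each member in the Krt24 and Cd34 group (left) and the Pthlh and Tgfb2 group (right) of the OB cluster, as the log2 ratio of CPM to IFE.B of the same library. Each point is 1 of 6 libraries, short lines are medians, and the dotted line at 0 is the level of IFE.B. All 6 H2-K1 points of the Krt24 and Cd34 group lie below 0, while those of the other group, with a median ratio of 1.04 before the log, lie on both sides of it.

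When the Krt24 and Cd34 group alone stood for the bulge, the fitted log2 difference from IFE.B was -2.12 for H2-K1, -2.08 for H2-D1, -2.01 for B2m, -2.65 for Psmb8 and -2.57 for Psmb9. For Tap2 it was -0.73 and for Tapbp -0.72. The naming rule at resolution 0.8 gave a bulge of mostly other cells, in 3 clusters of 2374, 1509 and 1060 cells of which 15, 1508 and 1 were in OB, and without the Pthlh and Krt6a groups. With those cells H2-K1 was -2.33, B2m -2.28 and Nlrc5 -3.03.

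Some clusters outside the named bulge were lower than OB as a whole. An unnamed cluster led by Lhx2, Krt28 and Col14a1, most of whose 3983 cells came from 4d and 6d, stood below OB in all 6 libraries for H2-K1, at 319 ± 84.1 CPM (SD, n = 6). With it added to the bulge, the log2 difference from IFE.B was -1.80 for H2-K1 and -1.79 for B2m. An unnamed cluster led by Pinlyp, Krt79 and Krt75 also held less H2-K1, at 260 to 533 CPM against 662 to 1049 CPM in OB. Its range and that of the Col14a1 cluster, 199 to 419 CPM, overlapped that of the Krt24 and Cd34 group, 267 to 524 CPM. Inner root sheath cells, found at 4d and 6d alone, held 155 and 191 CPM of H2-K1. Their B2m was 90.7 and 134.7 CPM.

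Across the 8 named cell types with at least 20 cells in every library, the heavy chains and B2m were spread over less than an order of magnitude. Mean H2-K1 was highest in IFE.B (1521 ± 268 CPM, SD, n = 6), followed by uHF.B (1305 ± 251), suprabasal epidermis (1127 ± 119), suprabasal upper follicle (1096 ± 148), OB (835 ± 162), melanocytes (797 ± 199), Langerhans cells (767 ± 359) and T cells (748 ± 264). In 1 fit over 48 sums, of these steps between neighbours only that from suprabasal upper follicle to OB passed (log2 0.68, edgeR adjusted p = 0.00179, where 42.3% of 13254 genes passed). The other neighbours did not differ beyond their spread in this fit.

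The other members ordered the cell types differently. H2-D1 stood at 2778 ± 910 CPM in melanocytes and 2695 ± 517 CPM in IFE.B, and was lowest in OB at 1357 ± 294 CPM, a step below suprabasal upper follicle that passed (edgeR adjusted p = 3.71e-05). B2m was highest in Langerhans cells (1239 ± 301 CPM), the antigen presenting cells of the epidermis, and its step from suprabasal epidermis down to OB passed (edgeR adjusted p = 1.48e-07, where 53.5% of genes passed). Psmb8 was also highest in Langerhans cells, at 469 CPM against 252.8 CPM in IFE.B (edgeR adjusted p = 0.00552, where 55% of genes passed), and OB, at 117.9 CPM, passed against neither of its neighbours.

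The step down to OB also passed for H2-Q4 and Nlrc5, from uHF.B (edgeR adjusted p = 0.0265 and 0.000597, where 29.5% of genes passed), and for Tap1, from Langerhans cells (edgeR adjusted p = 0.0132, where 51.3% passed). In 20 of the 70 steps between neighbours the fit, which scales for composition, ran against the order of mean CPM. H2-D1 between melanocytes and IFE.B (edgeR adjusted p = 0.000587, where 42.4% of genes passed) and Tapbp between OB and suprabasal epidermis (edgeR adjusted p = 0.0419) passed in this way. In this fit the Tapbp step from IFE.B down to OB passed (edgeR adjusted p = 0.0393, where 37.1% of genes passed), as it did not in the pairwise fit.

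**Figure D4:**
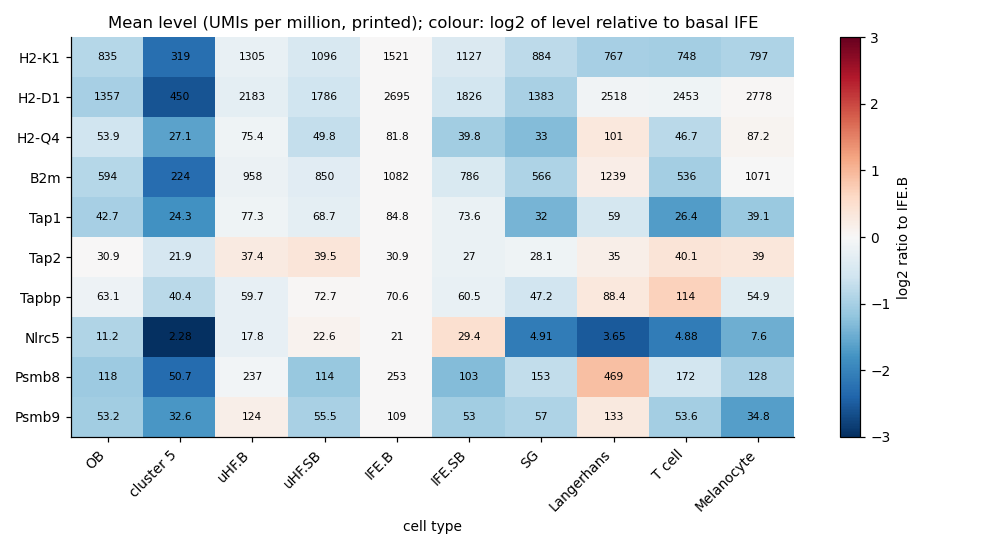
Heat map of the mean level of each member (rows) by cell type (columns), with the mean CPM over libraries printed in each cell and the colour giving its log2 ratio to IFE.B, blue for lower and red for higher. SG, the sebaceous gland type, is a mean of 5 libraries and the other columns of 6, SB is suprabasal, and cluster 5 is the unnamed Lhx2, Krt28 and Col14a1 cluster. For H2-D1, OB stood at a mean of 1357 CPM against 2183 CPM in uHF.B and 2695 CPM in IFE.B.

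Levels of the members moved over the time points in several cell types at once. In the order 0h, 4h, 16h, 2d, 4d, 6d, B2m in OB was 702, 346, 478, 810, 671 and 561 CPM. In IFE.B it was 1359, 567, 1094, 1347, 1047 and 1078 CPM. Both types were lowest at 4h. Among the 5 keratinocyte types of bulge, upper follicle and epidermis, the 4h library was the lowest in 5 of 5 for B2m, Tap2 and Psmb9, and the ratio of 4h to 0h ran from 0.411 to 0.580 for B2m and from 0.116 to 0.435 for Psmb9.

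Other members had their low and high points elsewhere. H2-D1 was lowest at 2d in 5 of 5 keratinocyte types, and Psmb8 and Psmb9 were highest at 4d in 5 of 5. Over the same 6 libraries Psmb9 in OB was 47.0, 5.45, 36.8, 73.8, 91.9 and 64.5 CPM. Each time point is 1 library, so the time and the library cannot be told apart. In OB, 358 of the 599 cells at 4h and 233 of the 544 at 16h were of the Krt6a and Serpinb2 group, which was absent at 0h. A T cell and antigen presenting cell marker sum (13 genes) was 24.5 to 137.5 CPM in OB, highest at 2d, and 23.7 to 82.6 CPM in IFE.B, against 71120 to 93530 CPM in Langerhans cells, and its part in the time pattern was not tested.

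**Figure D5:**
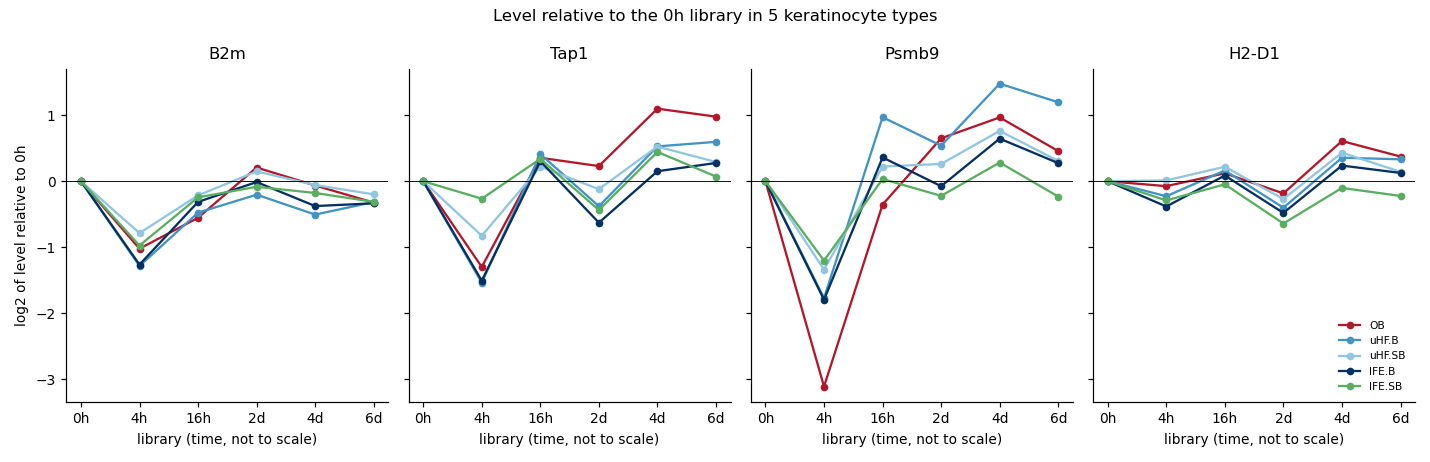
Level of B2m, Tap1, Psmb9 and H2-D1 in each library relative to the 0h library (log2 of the CPM ratio) in 5 keratinocyte types, 1 line per type and 1 library per time point, spaced evenly and not to scale. At 4h the B2m points stand for ratios of 0.411 to 0.580 and the Psmb9 points for 0.116 to 0.435, all below the line at 0 that marks the 0h level.

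A spline over the 6 libraries of a cell type left 2 residual degrees of freedom, and called 1 member in 1 cell type. Psmb9 in melanocytes passed (edgeR adjusted p = 0.0428, where 5.49% of genes passed), and rested on 1, 3, 2, 11, 137 and 18 UMIs at the 6 times in order. In Langerhans cells, T cells and the unnamed Col14a1 and Pinlyp clusters no member passed, where 0.0161%, 0.0514%, 1.4% and 0.758% of genes did. In OB, uHF.B, IFE.B and both suprabasal types edgeR called 0 members and 0 genes at all, while 78 to 472 genes per type had an unadjusted p under 0.05, and DESeq2 called 17 to 148 genes there and 0 members. On simulated data the OB time course recovered 2% of genes changed by 2 on the log2 scale, so a change of that size was not detectable with these libraries. On a log2 scale of hours Psmb9 in OB passed (edgeR adjusted p = 0.0139), together with 1841 of 10436 genes.

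The difference between bulge and basal epidermis showed no detectable straight-line change over hours. A test of its slope over hours by edgeR called 0 of the 10 members and 0 of 12748 genes, while 1041 genes had an unadjusted p under 0.05, and DESeq2 called 75 genes and no member. The slope for H2-K1 was -0.01 per day (log2, 95% interval -0.12 to 0.11). That for Tapbp was -0.17 per day (unadjusted p = 0.0406, edgeR adjusted p = 0.591). Simulated slopes were recovered in 1% and 18% of genes for changes of 1 and 2 on the log2 scale, so slopes of these sizes were mostly not detectable. A slope also cannot show a dip or peak at single time points. The Psmb9 ratio of OB to IFE.B, for example, was lowest at 4h (0.182) and highest at 2d (0.749).

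Bulge cells with at least 2 UMIs of cycling genes had more Psmb9. Cells with at least 2 UMIs of 10 cycling genes after thinning (20 to 73 cells per library) are called cycling here. They were set against the other OB cells of the same library. Hmgb2 held 3043 UMIs in OB before thinning, against 36 to 228 for each other gene of this list. At 0h, 29 of 350 OB cells qualified. How many of the qualifying cells were dividing was not tested. Psmb9 was higher in 6 of 6 libraries, by 0.77 on the log2 scale (SE 0.176, edgeR adjusted p = 0.00320), and was the 1 of 10 members called, where 1.63% of 8409 genes were higher, 0.868% lower and 2.5% called in all. H2-K1 (0.28, adjusted p = 0.0617), H2-D1 (0.22, 0.108) and B2m (0.23, 0.252) were also above the non-cycling cells in 6 of 6 libraries without passing the edgeR test. This comparison pooled the groups of OB. Psmb9 stood at 2.18 to 33.3 CPM in the Krt24 and Cd34 group and at 10.1 to 161.7 CPM in the Pthlh and Tgfb2 group. How the cycling cells divided between the groups was not tested.

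In IFE.B the cluster of cycling cells likewise stood above both other clusters for H2-K1 in 6 of 6 libraries, by median ratios of 1.47 and 1.55. The same held in 6 of 6 libraries for H2-D1, H2-Q4, B2m, Tap1 and Psmb9. Nlrc5 ran the other way, lower in the cycling cluster in 5 of 6 and 6 of 6 libraries (median ratios 0.839 and 0.756), and Tapbp was lower in 5 of 6 and 4 of 6. Tap2 and Psmb8 were above 1 of the other clusters in 6 of 6 and above the other in 4 of 6. All 10 cycling genes were lower in OB than in IFE.B. Among non-cycling cells only, the log2 difference between OB and IFE.B was -1.01 for H2-K1, -1.07 for B2m and -1.18 for Psmb9.

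Related genes, from lists of the pathway, showed where the difference extended. Of the other class I heavy chains and class I-like genes, 13 of 17 were tested, 7 were lower in OB than in IFE.B and 3 higher, where 18.3% of all genes tested were lower and 18.8% higher. H2-T22 (-1.18), H2-M3 (-1.22) and H2-M2 (-2.94) were among the lower, as was Hfe (-1.39), a class I-like regulator of iron uptake. H2-M2 and Hfe rested on 16 and 19 UMIs in OB. H2-M2 is also among the 10 leading genes of the Langerhans cell cluster, and stood at 0.511 to 2.52 CPM in OB and 1.83 to 16.1 CPM in IFE.B. The part of Langerhans cell RNA in its difference was not tested. Fcgrt, the neonatal Fc receptor, was higher by 1.30 on the log2 scale, at 2.91 to 24.5 CPM in OB and 0.899 to 8.60 CPM in IFE.B (edgeR adjusted p = 0.00526). Cd1d1, which presents lipids, was also higher but rested on 24 and 30 UMIs. H2-K2 and H2-T10 of that list had no entry under these symbols.

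Of 8 genes of peptide supply and loading 3 were lower and 0 higher. Of all genes tested 18.3% were lower and 37.1% were called in either direction. Among the lower was Psme2, a subunit of the proteasome activator, at -1.12 (81.2 to 214.0 CPM in OB, 199.9 to 321.4 CPM in IFE.B, edgeR adjusted p = 0.000171). The constitutive subunits Psmb5, Psmb6 and Psmb7, which the immunoproteasome subunits replace, showed 0 calls of 3 with edgeR, at a median log2 difference of -0.18.

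Among 14 regulators of class I transcription 6 were lower and 1 higher, where 18.3% of all genes were lower and 18.8% higher. Among the lower were Nfyb (-1.26), a subunit of the CCAAT-binding factor, and Ezh2 (-1.21), a histone methyltransferase that can silence class I genes.

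Some interferon genes were also lower in the bulge. The interferon gamma receptor gene Ifngr1 stood at 9.82 to 20.8 CPM in OB and 102.9 to 191.2 CPM in IFE.B, without overlap, a log2 difference of -3.57 (SE 0.149, edgeR adjusted p = 1.75e-07). Of 18 interferon response genes tested 7 were lower and 0 higher, with a median log2 difference of -0.60, where 18.3% of all genes were lower and 37.1% were called in either direction. Gbp2, a guanylate-binding protein, was -3.09 and Irgm1, a GTPase, -1.69 (edgeR adjusted p = 0.000104 and 0.00116). They rested on 9 and 28 UMIs in OB, so the sizes of these differences are uncertain. Cxcl10, a T cell chemokine, stood at 0 to 0.495 CPM in OB, on 2 UMIs in all, and at 0.546 to 23.7 CPM in IFE.B.

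Few keratinocytes of the bulge, upper follicle and epidermis held at least 3 interferon response UMIs after thinning. They were 0 to 5 cells per library in OB (at most 0.966%), 0 to 79 in uHF.B (at most 6.13%) and 6 to 56 in IFE.B (0.181 to 2.77%). The shares were larger in T cells, at 9.80 to 18.1%, and in melanocytes, at 9.46 to 35.5%. In the 4h library 0 of 559 OB cells qualified, which allows a share of up to 0.537%. In uHF.B all 10 members were higher in these cells than in the others in 5 of 5 libraries, with median ratios from 1.31 for H2-D1 to 3.30 for Tapbp. Some of these were near equality, with lowest ratios of 1.01 for Nlrc5 and 1.05 for Tap1. In IFE.B 9 of the 10 were higher in 5 of 5 libraries and H2-Q4 in 3 of 5. In suprabasal epidermis, with 1 library to compare, 5 of the 10 were lower in these cells, down to a ratio of 0.579 for Nlrc5. In T cells no member was higher in all 6 libraries. Leaving these cells out changed no member's call against IFE.B, and against uHF.B it changed that of Tap2 alone (edgeR adjusted p = 0.0693).

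Of 7 tested ligands and factors that act on T cells and natural killer cells, 2 were higher in OB and 5 lower, where 18.8% of all genes were higher and 18.3% lower. Cd200, an inhibitory ligand, had a median of 50.7 CPM in OB, with at most 106.0, and stood at 0.622 to 2.93 CPM in IFE.B (log2 4.97, SE 0.593, edgeR adjusted p = 0.000341). Tgfb2 was higher by 3.30, at 10.2 to 247.4 CPM in pooled OB and 3.085 to 17.0 CPM in IFE.B. It is among the leading genes of the Pthlh and Tgfb2 group, where most members stood near the epidermal level. How its UMIs divided between the OB groups was not tested. Tgfb1 was lower (-1.29). H60c, a stress ligand for the NKG2D receptor, was -2.40 and Ulbp1, another, -1.40, the latter on 25 UMIs in OB. Cd274, which encodes PD-L1, stood at 0 to 1.17 CPM in OB, on 8 UMIs in all, and at 0.931 to 5.74 CPM in IFE.B (-2.60, edgeR adjusted p = 0.00877).

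Outside these lists, the genes whose levels most resembled the mean standardised level of the 10 members over 48 cell type and library sums were Pafah1b3 (Pearson r = 0.70), Espl1 (0.63), Atpif1 (0.63), Pef1 (0.61), Crybg3 (0.60), Miip (0.59), Prr11 (0.59) and Gm10282 (0.58). The members themselves ranged from 0.83 for Tap1 to 0.13 for Nlrc5. Each member is part of the mean it was compared with, which raises its value. The values of members and of other genes are therefore not comparable. The sums share libraries and cell types, so these values describe likeness only.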

How the data were processed

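The authors processed the Chromium 3′ reads with Cell Ranger 6.1.2 (mm10, per the labels) and deposited filtered matrices whose values are unnormalized UMI counts. Members, lists, markers and the choice of bulge cluster were settled with earlier results of these data known. Cells with 500 to 7000 genes and at most 10% mitochondrial UMIs were kept (55177 of 61031), and the highest Scrublet scores (scanpy 1.11.5) at 0.8% per 1000 barcodes removed 4675 as doublets. Libraries were integrated with Seurat 5.3.0 (2000 genes, 30 components, resolution 0.4), leaving 246 class I, interferon and other listed genes out. A cluster was named when 3 of its markers were higher by 0.5 (log2), a rule tightened, and OB set to 1 cluster, after values had been seen. Summed counts were tested with edgeR 4.0.16 in R 4.3.3 (TMM, filterByExpr, robust quasi-likelihood, library as block; spline with 3 degrees of freedom for time), at an adjusted p of 0.05. DESeq2 1.42.0 was an alternative. Intervals for CPM (Poisson) and shares (binomial) cover counting error only. Each library is 2 mixed mice, so p-values measure the spread between libraries taken at different times. The scripts were tested on simulated data, where 71% and 93% of genes changed by 1 and 2 (log2) were recovered for OB against IFE.B, and 4.09% of calls were false. All 10 members were named. A gene of the other lists was given values only if called between OB and IFE.B with a log2 difference of at least 1. At most 10 were named per list, and not all genes that met this rule were named. A gene that this rule would name is not reported here.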

Additional observations from a re-analysis of the deposited data

How the results depend on the processing

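Of the 10 members, the 8 lower in OB than in IFE.B kept their direction in all 23 alternatives and their call in all, save H2-Q4 and Psmb9 without the library block (adjusted p = 0.224 and 0.0870, where 2346 genes were called in place of 4730). Against uHF.B, no block called 1322 genes in place of 4422 and lost H2-Q4, Tap1, Tap2, Nlrc5 and Psmb9 (adjusted p = 0.420, 0.0993, 0.423, 0.0503 and 0.125), and adding the Col14a1 cluster to OB called 2915. The counts ran from 3685 to 5081 against IFE.B and from 3301 to 4390 against uHF.B when 1 library was left out. Tap2 passed against IFE.B in 4 of 23 alternatives and Tapbp in 6 of 23, in each case counting the Krt24 and Cd34 cluster, which was chosen after values had been seen. The choice of bulge cells moved values most, and cells assigned to types by marker score gave -1.89 for H2-K1.

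Cycling cells: DESeq2 called 117 genes in place of 210, and leaving out 1 library gave 95 to 247, 95 without 4d and 110 without 6d. Psmb9 passed in 12 of 12 alternatives. Psmb8 and B2m passed with doublets kept and with 1 or more cycling UMIs (adjusted p = 0.000853 and 0.00217, 0.0101 and 0.00893), H2-K1 also with RLE scaling (0.00849), and Tap1 without 2d (0.0134). Tapbp turned to 0.14 with doublets kept and Nlrc5 to -0.18 with 1 or more cycling UMIs. Without 1 library, H2-Q4 ran from -0.041 to 0.24, Tap2 from -0.019 to 0.32, Tapbp from -0.34 to 0.0091 and Nlrc5 from -0.26 to 0.44. At least 4 cycling UMIs could not be fitted.

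Slope with time, where 0 genes were called: DESeq2 called 75, OB as the Sncg cluster alone 25, OB as the Krt24 and Cd34 cluster alone 31, and marker score and rank of hours 1 each. Leaving out 1 library gave 0 to 4. No member passed in any of 21 alternatives. Slopes near 0 changed sign. H2-K1 was 0.014 with no low-count filter, 0.0050 without cells holding an immune UMI, 0.0054 with equal cell numbers, 0.012 and 0.0072 on log2 and ranked hours and 0.027 for the Krt24 and Cd34 cluster. H2-D1 was 0.013 with no filter and 0.00066 on log2 hours, and Tap2 0.013 on log2 hours. By marker score, Tap1 was -0.016, Nlrc5 -0.14, Psmb8 -0.16 and Psmb9 -0.0022. With the Col14a1 cluster they were -0.046, -0.19, -0.22 and -0.045, and for the Sncg cluster -0.14, -0.22, -0.098 and -0.034. Psmb8 was -0.0053 with equal cell numbers and -0.074 with the Pinlyp cluster, and Psmb9 -0.00047 with the Pinlyp cluster and -0.014 for the Krt24 and Cd34 cluster. Without 1 library, H2-K1 ran from -0.018 to 0.019, H2-D1 from -0.014 to 0.013, H2-Q4 from -0.077 to 0.042, B2m from -0.042 to 0.0081 and Psmb8 from -0.044 to 0.14. The cause of these changes was not tested.

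Time course, where 1 member was called in 1 cell type: 0 were called with DESeq2, without robust estimation, with doublets kept, by marker score, without interferon response cells, with equal cell numbers and with a linear trend. With no filter 2 were called, on log2 hours 4 and on ranked hours 2. Leaving out 1 library gave 0 to 6, 6 without 0h, 4 without 4h, 2 without 6d and 0 without 16h or 2d. On log2 hours many other genes passed too, as given above for OB. These counts stand without the share of all genes called, so they are not a result about the members.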
